A study of Mus musculus with 2 samples.

Results

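Nascent transcripts lying in the 5' untranslated region (5' UTR) of genes were followed in mouse bone marrow-derived macrophages (BMDMs) with and without interleukin 4 (IL-4). The members were the transcripts of both deposited annotated transcript lists whose annotation opens with 5' UTR and whose detailed annotation holds no vertical bar, the sign of a repeat name. The control library held 1058 such transcripts of 43122 (2.45%, exact 95% binomial interval 2.31% to 2.60%), and the IL-4 library held 1123 of 51365 (2.19%, interval 2.06% to 2.32%), 2181 of 94487 in all. The requirement on repeats removed 0 transcripts. These intervals, and those below, cover counting error only.

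Both groups were wild-type C57BL/6 BMDMs from mice aged 8 to 12 weeks, differentiated for 6 days in L929 supernatant, a source of macrophage colony-stimulating factor. The treated cells received IL-4 at 20 ng/ml for 1 h, and the control cells received none. Nascent RNA was measured with GRO-seq (global run-on sequencing), in which engaged polymerases of isolated nuclei are allowed to extend with a labelled nucleotide. Duplicate run-on reactions were pooled and about 100 ng of run-on RNA made 1 library per condition, so n = 1 throughout, no difference below has a replicate check, and no test was run. The mice, culture and library of a condition cannot be told apart from the IL-4 treatment. Because the material was bulk, fewer cells making a transcript and less nascent RNA per cell cannot be told apart either.

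The 5' UTR is the stretch of an mRNA between its capped start and the start codon, and in the gene it usually begins with the first exon. After initiation RNA polymerase II often pauses a short way into this stretch before it is released into the gene body, so run-on signal is commonly dense there. IL-4 acts on macrophages through its receptor and Janus kinases (JAKs) to activate STAT6, a transcription factor that binds paired TTC and GAA half-sites, and the resulting state is known as alternative polarization.

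All 14 macrophage marker genes had at least 1 sense transcript inside the gene in both libraries, with summed highest scores of 24.6 (control) and 16.7 (IL-4). Csf1r, the receptor for macrophage colony-stimulating factor, led both libraries with scores of 5.6 and 4.6. Sense transcripts inside the gene were found in 0 of 8 T cell, 0 of 6 mast cell or basophil, 0 of 4 dendritic cell, 0 of 7 erythroid and 0 of 8 fibroblast marker genes in either library. By the name of the nearest gene, 2 T cell markers had a transcript in each library, as did 1 erythroid marker in control and 3 after IL-4. The immunoglobulin gene Ighm accounted for the B cell markers (1 of 6, score 0.3 in control and 0.2 after IL-4), and 3 of 8 neutrophil markers in control and 4 of 8 after IL-4 had a transcript, with summed highest scores of 1.9 and 1.2. Their part in the results was not tested, and 0 of these marker genes had a 5' UTR transcript.

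The genes that carried a 5' UTR transcript were read for STAT half-sites in the RefSeq promoter windows of the GRCm38.p6 build, each reaching from 250 bases before to 50 bases after an annotated start. Of 1542 gene names, 1272 matched a window. The motif TTCNNNNGAA (TTC, any 4 bases, GAA, which reads alike on both strands) is the spacing favoured by STAT6. Shown here, because they belong to genes described below whose 5' UTR transcript or whole gene was higher after IL-4, are matches with the motif in capitals and 10 bases on either side, 5' to 3' along the gene:
Pdcd1lg2: catgctccagTTCCTCAGAAaccattctgg
Tfec: ccattgtaaaTTCTGGGGAAaaatgtttat
St7: aatcgcgctgTTCCCTTGAAaccctggagc
Sys1: aagctctcccTTCCCAGGAAgccgtgggcc
Nf2: ctctacaggtTTCCCGGGAAaggcgccgcc
The run at Pdcd1lg2 was chr19:29410827-29410856 on the plus strand, with its motif beginning 82 bases before the start, and the 5' end of the IL-4 library's 5' UTR transcript lay 65 bases after the start. At Tfec the run was chr6:16898622-16898651 on the minus strand, 200 bases before a start, with the transcript's 5' end 19 bases after it. At St7 it was chr6:17749100-17749129 on the plus strand, 60 bases before a start and followed by a transcript 345 bases after the start. At Sys1 it was chr2:164460964-164460993 on the plus strand, just after the start, and at Nf2 it was chr11:4849739-4849768 on the minus strand, 214 bases before a start.

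A match is a description of letters and not a bound site. Matches also lay at genes whose 5' UTR transcript was not higher after IL-4. Among them were Stt3b (0.5 in both libraries), Mapkapk3 (0.5 in control, an exonic 0.3 after IL-4) and Mllt3 (0.1, in control only). Single sites were looked up for all member genes of the study's induced clusters A to C, described below. For its repressed cluster E, where 5 of 70 genes had a match, they were not all looked up. TTCNNNNGAA occurred in a window of 72 of the 1272 genes (5.66%, interval 4.45% to 7.08%), against 8.01% of the 27025 genes with any window. The share was 6.29% of genes with a 5' UTR transcript only after IL-4, 5.44% of those only in control and 5.22% of those in both, with intervals that overlapped. The spacing of 3 bases, TTCNNNGAA, shared by other STAT proteins, was found in 8.41% of member genes and 9.55% of all genes. The GC box GGGCGG, searched on both strands, was found in 73.8% (interval 71.3% to 76.2%) of member genes against 38.2% of all genes, and the TATA box TATAAA, also on both strands, in 7.55% against 15.7%. Over the first listed window of each gene, median GC content was 62.3% for member genes and 52.7% for all genes. The median number of CpG pairs in that window was 23 against 7. Genes with a 5' UTR transcript thus had start regions richer in GC and poorer in TATA boxes than those of all genes. The set of all genes includes genes without a called transcript here, and other transcribed genes were not compared. The difference may therefore not be particular to the 5' UTR class. A gene with a TATA box close to its start was Btg1, an antiproliferative early-response gene (chr10:96616963-96616992, plus strand, motif 26 bases before the start):
Btg1: tttccgcagcccTATAAAatgagctgcacg

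The 5' UTR transcripts numbered 1.06 times as many after IL-4 as in control, whereas all transcripts numbered 1.19 times, those of the promoter class 1.12 times and intronic ones 1.21 times as many. When any transcript that overlaps a 5' UTR exon was counted instead, the ratio was 1.23, above that of all transcripts. The contrast therefore depended on how the class was set. The 5' UTR transcripts were short in both libraries. Their median length was 264 bp in control (quartiles 208.25 and 366 bp, range 49 to 1759 bp) and 308 bp after IL-4 (quartiles 235.5 and 431 bp, range 58 to 1471 bp). The median was 44 bp longer in the IL-4 library, against 85 bp for all transcripts, 61 bp for promoter transcripts and 90 bp for intronic ones. Summed length was 1.25 times that of control, against 1.71 times over all transcripts.

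The score that accompanies each transcript, a value given to 1 decimal whose scaling is not given in the sources used here, had a median of 0.3 in control and 0.2 after IL-4 among the 5' UTR transcripts. Scores of 0.2 or less were held by 39.0% of them in control and 51.3% after IL-4, against 45.4% and 63.9% of all transcripts. Scores of 1 or more were held by 39 (3.69%) in control and 11 (0.98%) after IL-4. The surplus of 5' UTR transcripts in the IL-4 library lay at the lowest scores: with a score of at least 0.3 the control library held 645 and the IL-4 library 547, and at the lowest score of 0.1 there were 95 and 192. The sum of score times length over the 5' UTR transcripts was 0.933 times that of control, and over all transcripts 0.997 times.

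**Figure D1:**
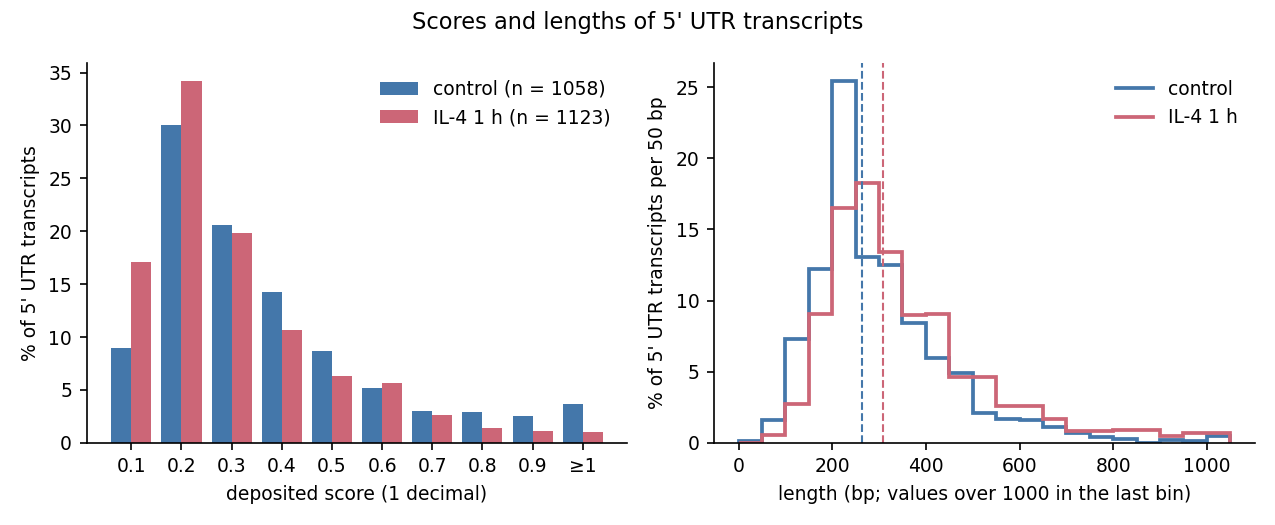
Left, share in percent of 5' UTR transcripts at each score, with all scores of 1 or more in the last pair of bars; right, share by length in bp, with the longest transcripts gathered in the last bin and dashed lines at the medians, for the control library (blue, 1058 transcripts) and the IL-4 library (red, 1123). The IL-4 library has the larger shares at scores of 0.1 and 0.2, and its median length is 308 bp against 264 bp.

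Most of these transcripts lay on the strand of their gene and in its exon 1. Of those whose gene strand could be read, 978 of 1042 in control (93.9%) and 1043 of 1113 after IL-4 (93.7%) lay on the gene's strand, leaving 64 and 70 antisense. Exon 1 held 992 (93.8%) in control and 1039 (92.5%) after IL-4. The annotation takes a transcript's midpoint, and the promoter class ends 100 bp after a start, so the midpoints of the 5' UTR class begin at 101 bp in both libraries, with medians of 174.5 and 177 bp.

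Among the 921 sense transcripts in exon 1 in control and 968 after IL-4, the median 5' end lay 26 bp after the annotated start in control and 16 bp after it in the IL-4 library. The 5' end fell within 50 bp of the start in 55.9% (interval 52.6% to 59.2%) and 60.7% (57.6% to 63.8%). The median 3' end lay 307 bp after the start in control and 332 bp after it in the IL-4 library, and 48.4% and 50.4% ran past the end of exon 1. An opposite-strand transcript lay divergently within 500 bp of 21.6% (interval 19.2% to 24.3%) of all 5' UTR transcripts in control and 28.4% (25.8% to 31.1%) after IL-4. The same share was 41.1% and 50.4% for promoter transcripts, so the difference between libraries had the same direction in both classes.

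**Figure D2:**
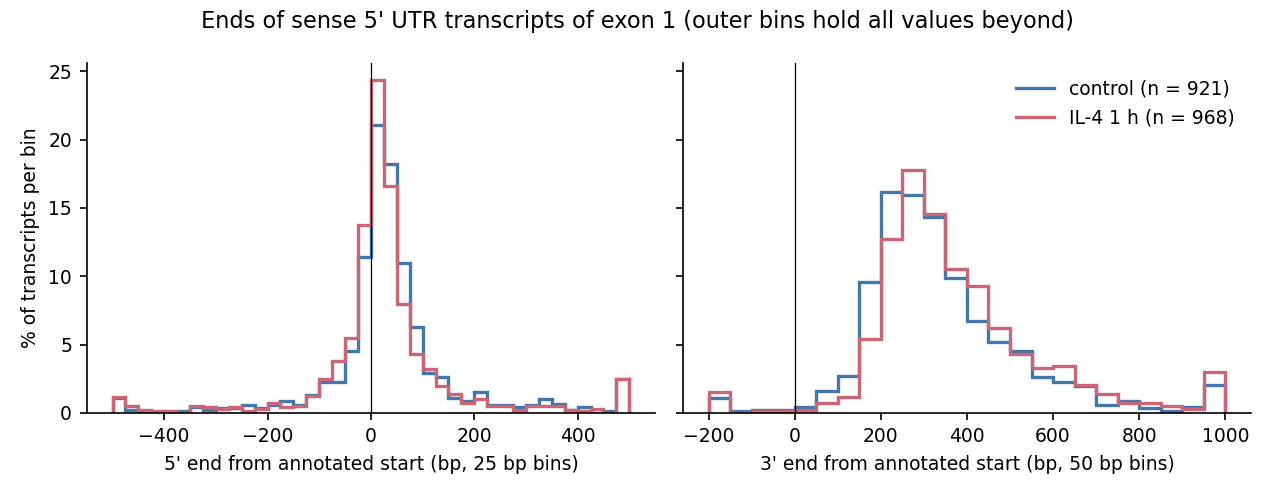
Distance in bp of the 5' end (left, bins of 25 bp) and the 3' end (right, bins of 50 bp) of sense 5' UTR transcripts in exon 1 from the annotated start, marked by a vertical line, as percent of transcripts in control (blue, 921 transcripts) and after IL-4 (red, 968), with the outer bins holding all values beyond. The 5' ends cluster at the start in both libraries (medians 26 and 16 bp) and the 3' ends are spread more widely (medians 307 and 332 bp).

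Each 5' UTR transcript was then looked for in the other library. Of the control transcripts, 551 (52.1%) were overlapped most by a same-strand transcript that was also of the 5' UTR class, 176 by an intronic one, 110 by an exonic one and 72 by one of the promoter class, while 149 (14.1%, interval 12.0% to 16.3%) had no same-strand overlap. Over all control transcripts 37.4% had none. Of the IL-4 transcripts, 548 (48.8%) were overlapped by a 5' UTR transcript, 124 by a promoter one, 97 by an intronic one and 74 by an exonic one, while 280 (24.9%, interval 22.4% to 27.6%) had no overlap, against 48.1% of all IL-4 transcripts. Among promoter transcripts 19.8% in control and 34.6% after IL-4 had none.

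Transcripts without an overlap had low scores. Their median score was 0.2 in both libraries and their highest 0.6 in control and 0.8 after IL-4, and 77.2% and 80.7% of them were at 0.2 or less. With a score of at least 0.3 the share without an overlap was 34 of 645 (5.27%) in control and 54 of 547 (9.87%) after IL-4. In control and after IL-4 it was then 8.47% and 13.4% for promoter transcripts and 15.7% and 17.3% for exonic ones. For intronic ones it was 26.0% and 21.9%. At scores of 1 or more it was 0 of 39 and 0 of 11 for the 5' UTR class. Such counts of 0 allow shares of up to 7.69% and 27.3%, the limit being set at 3 counts. The 5' UTR transcripts present in 1 library only were thus mostly those near the lowest recorded scores.

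**Figure D3:**
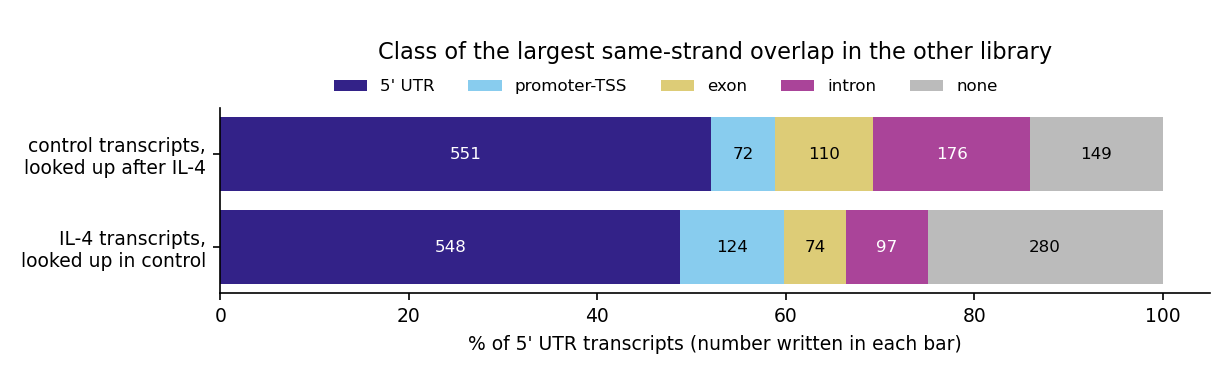
Bars divided, in percent of the 5' UTR transcripts of the control library (1058, above) and the IL-4 library (1123, below), by the class of the same-strand transcript that overlaps them most in the other library, with the number of transcripts written in each section. The 5' UTR class leads in both (551 and 548), and the section without an overlap is wider for the IL-4 library (280 against 149).

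Where a transcript of each library was the other's largest same-strand overlap they were treated as a pair, and the log2 ratio of the IL-4 score to the control score was centred on the median of all 26395 pairs, which was -0.32. Among the 1190 pairs with at least 1 5' UTR transcript the median centred log2 ratio was 0.32, which is an equal score in both libraries. The IL-4 score was the higher in 316 pairs (26.6%), the lower in 533 (44.8%) and equal in 341 (28.7%), while over all pairs it was the higher in 22.2% and the lower in 54.8%. At 2-fold or more, 133 pairs (11.2%, interval 9.44% to 13.1%) were higher after IL-4 and 71 (5.97%, interval 4.69% to 7.47%) were lower, beside a background of 10.3% higher and 11.5% lower over all pairs. The share of higher pairs was thus near the background, and the share of lower pairs was below it.

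Pairs in which both transcripts were of the promoter class had much the same values, with a median of 0.32, 11.7% higher and 5.28% lower, whereas intronic pairs had a median of -0.09, 10.2% higher and 13.3% lower. Without centring, 104 of the 1190 pairs (8.74%) were higher and 204 (17.1%) lower, against 8.60% and 27.8% of all pairs, so which direction held more pairs depended on the centring. Scores are given to 1 decimal, and only 32 pairs (2.69%) were 2-fold higher and 14 (1.18%) 2-fold lower for every unrounded score that the printed values allow, against 3.86% and 3.21% of all pairs.

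**Figure D4:**
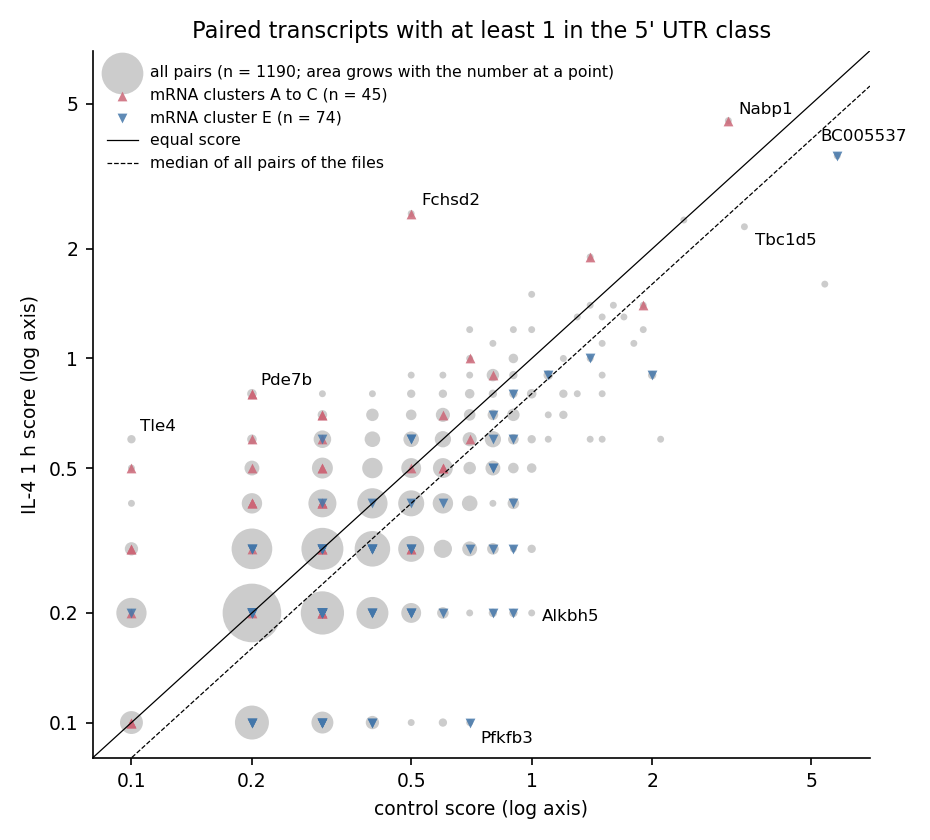
Score after IL-4 against score in control, both on log axes, for the 1190 pairs with a 5' UTR transcript; the area of a grey disc grows with the number of pairs at that point, red triangles mark pairs of the study's induced mRNA clusters A to C (45) and blue triangles those of its repressed cluster E (74). The solid line is an equal score and the dashed line the median ratio of all pairs, 0.8. Most pairs lie at scores under 1, Fchsd2 lies far above the lines (0.5 and 2.5) and Pfkfb3 far below (0.7 and 0.1).

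The paired transcripts were longer after IL-4, and the difference lay at their 3' ends. Their median length was 351 bp against 277 bp in control, and 798 of the 1190 pairs (67.1%) had the longer transcript in the IL-4 library, as did 71.2% of all pairs. The 5' ends were within 50 bp of each other in 76.3% of the 5' UTR pairs against 64.0% of all pairs, whereas the 3' ends were so in 28.2% against 38.5%. The 3' end reached more than 50 bp further downstream after IL-4 in 50.3%, and the 5' end more than 50 bp further upstream in 15.2%. Of the 1190 pairs, 548 were of the 5' UTR class in both libraries. Their 3' ends were within 50 bp in 41.8% and more than 50 bp further downstream in 40.0%, against 38.5% and 46.5% of all pairs. The contrast with all pairs at the 3' end thus turned when pairs that changed class were left out.

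Many changes of class came with these shifts of the 3' end, since the class goes by the midpoint. In 173 pairs a 5' UTR transcript of control was an intronic one after IL-4; the median length was 498 bp against 239 bp in control, the median shift of the 5' end was 0 bp and that of the 3' end 227 bp downstream. In 106 pairs the IL-4 transcript was exonic, with median lengths of 267 and 488 bp and a 3' shift of 181 bp. In 124 pairs a promoter transcript of control was a 5' UTR transcript after IL-4, and the median length was 285 bp against 205.5 bp. The opposite changes were fewer: 96 pairs went from intron to 5' UTR (422 and 300 bp) and 74 from exon to 5' UTR (377.5 and 301.5 bp). The median centred log2 ratio of the scores was 0.32 in all of these groups except the pairs from intron to 5' UTR, where it was -0.05.

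The highest-scoring 5' UTR transcript in both libraries was that of BC005537 on chromosome 13, a gene of unassigned function here, with a score of 5.8 in control (chr13:24801184-24802942) and 3.6 after IL-4 (chr13:24801201-24802671). It was also the longest in each library, at 1759 and 1471 bp. Next in control came Tbc1d5, a regulator of endosomal trafficking, at 3.4, paired with an intronic transcript of 2.3 after IL-4. Nabp1, a single-stranded DNA binding protein, had 3.1 in control over 561 bp and an exonic transcript of 4.5 over 977 bp after IL-4. Suv420h1 (Kmt5b), a histone H4 lysine methyltransferase, had an antisense 5' UTR transcript of 2.4 in both. After IL-4 the next highest were Ubap1, an endosomal sorting subunit, at 1.6 (a promoter transcript of 5.4 and 61 bp in control), Ddi2 at 1.4 (1.6 in control) and Mob1a, a Hippo pathway adaptor, at 1.4 in both. Of the pairs of these genes Ubap1 alone passed 2-fold on the score, lower after IL-4. On score times length Ubap1 did not (-0.56), whereas BC005537 was lower (-1.03) and Nabp1 higher (1.25) by more than 2-fold.

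The 6 largest differences upward, among pairs with a score of 0.5 or more in a library, were at Ly6e, Tle4, Fchsd2, Sys1, Dab2 and Pde7b. Fchsd2, an actin and endocytosis regulator, had the highest scores of them, with 0.5 in control (chr7:101108754-101109157) and 2.5 over an intronic transcript with the same 5' end in the IL-4 library. The centred log2 ratio was 2.64 (2.48 to 2.82 over the rounding of the scores). Its whole gene held 9 sense transcripts in control and 146 after IL-4. Tle4, a Groucho family corepressor, had an exonic transcript of 0.1 and 329 bp in control and a 5' UTR transcript of 0.6 and 1166 bp in the IL-4 library. Its centred log2 ratio was 2.91 (2.20 to 4.02), and the gene held 6 and 14 transcripts. Ly6e, a membrane protein of the Ly6 family, had scores of 0.1 and 0.6 antisense to the gene (2.91), while its sense transcripts numbered 4 and 3. Sys1, a Golgi membrane protein, went from a promoter transcript of 0.1 to a 5' UTR transcript of 0.5 (2.64).

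The transcript that the annotation names for C9 lay in a 5' UTR exon of Dab2, an endocytic adaptor of macrophages, on chromosome 15. It scored 0.8 after IL-4 against 0.2 in control (2.32), while 54 sense transcripts against 24 lay in the Dab2 gene. Pde7b, a cyclic AMP phosphodiesterase, also had 0.2 and 0.8 (2.32), with 26 and 67 transcripts in the gene. At Tle4, Fchsd2, Sys1, Dab2 and Pde7b the gene body therefore held more transcripts after IL-4, as the 5' UTR score was higher, and at Ly6e it did not.

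The 6 largest differences downward were at Pfkfb3, Jmy, Snx33, Alkbh5, Slc4a2 and Lpar6. Pfkfb3, which makes the glycolysis activator fructose-2,6-bisphosphate, had 0.7 in control (chr2:11501709-11502033) and 0.1 in the IL-4 library, which is -2.49 as a centred log2 ratio (-3.58 to -1.79), and its gene held 22 transcripts in control and 3 after IL-4. Snx33, a sorting nexin, had 0.6 and 0.1 (-2.26), and the anion exchanger Slc4a2 had 0.5 and 0.1 (-2.00), with 2 transcripts in its gene in control and 4 after IL-4. The Snx33 gene held 2 and 1. Alkbh5, an RNA demethylase, had 1.0 and 0.2 (-2.00) with 5 transcripts in the gene in both libraries. Lpar6, a lysophosphatidic acid receptor, had 0.9 and 0.2 (-1.85) with 4 transcripts in the gene in control and 1 after IL-4. At Jmy, an actin nucleator, 0.6 over 79 bp in control was set against 0.1 over 510 bp after IL-4 (-2.26), and on score times length the ratio was 0.02, so the difference at this gene was not seen once length was counted.

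By gene name, 1013 genes had a 5' UTR transcript in control and 1076 after IL-4, with 546 in both, which is 53.9% of the control genes and 50.7% of the IL-4 genes. Of the 1543 genes in all, 530 (34.3%) had one only after IL-4 and 467 (30.3%) only in control, beside backgrounds of 11.1% and 8.58% for genes with a transcript of any class. Of the genes with a promoter transcript in either library, 26.8% had one only after IL-4 and 18.2% only in control. Of the 546 shared genes the highest member score was equal in 153, higher after IL-4 in 146 and lower in 247.

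Many of these genes had a transcript of another class at the same place in the other library. The 5' UTR transcript of 282 of the 530 gained genes (53.2%) overlapped a same-strand transcript of control, most often of the promoter class (119), then intronic (91) and exonic (70). Of the 467 lost genes 337 (72.2%) were overlapped after IL-4, by intronic transcripts in 165, exonic in 106 and promoter ones in 64. That left 248 gained and 130 lost genes without a same-strand overlap, and 84 gained and 53 lost genes with no transcript of any class under the gene's name in the other library.

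Of the genes gained with no overlap, 14 had a score of 0.4 or more, and the 6 named by the rule, with ties at 0.4 taken in the order of the symbol, were Pkn2, St7, Txlna, Hbegf, Trnau1ap and Arl11. Pkn2, a protein kinase, had a 284 bp transcript of 0.8 (chr3:142881682-142881965), and its gene held 0 sense transcripts in control and 2 after IL-4. St7 had a score of 0.8 over only 58 bp (chr6:17749515-17749572), with 0 transcripts in the gene in control and 37 after IL-4. Hbegf, the heparin-binding ligand of the epidermal growth factor receptor, had 0.5 over 363 bp (chr18:36515414-36515776), the only sense transcript of its gene in either library. Txlna had 0.6, with 3 transcripts in the gene in each library, and Trnau1ap, a selenocysteine tRNA associated protein, had 0.5 with 0 and 1. Arl11, a small GTPase, had 0.4 with 0 and 3.

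Of the genes lost with no overlap the highest was Nr1h3, which encodes the oxysterol receptor LXR alpha, with 0.6 over 468 bp in control (chr2:91194592-91195059) and 3 transcripts in the gene in control against 1 after IL-4. The others named, each at 0.5 in control, were Gpr162, Mepce, Pnrc1, Slc7a11 and Slit1. The cystine transporter gene Slc7a11 had an 81 bp transcript, its only one, and none after IL-4. Slit1, an axon guidance ligand, held 14 transcripts in control and 4 after IL-4, and Gpr162 held 4 and 1. The transcript at Pnrc1 was antisense. Slc7a11 alone of these 6 genes was thus without any sense transcript in the other library. The named gained and lost genes do not stand for their groups. Leaving out the 5' UTR transcripts themselves, 141 of the 530 gained genes held more sense transcripts after IL-4, 234 held fewer and 155 equally many. Of the 467 lost genes, 266 held more after IL-4, 102 fewer and 99 equally many.

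The study sorted IL-4-regulated mRNAs of such macrophages into clusters A to D, which were induced, and cluster E, which was repressed. It used mRNA levels over a time course of IL-4 that ran well past the 1 h of these nascent transcripts. Of the induced clusters it describes A to C as immediate early. The values below therefore compare neither like times nor like RNA. These lists were drawn from its own mRNA measurements of IL-4-treated BMDMs, so they are not independent evidence of direction. Of cluster B, 14 pairs had a 5' UTR transcript, and 8 were at least 2-fold higher after IL-4 (57.1%, interval 28.9% to 82.3%) and 0 lower (exact upper limit 23.2%), with a median centred log2 ratio of 1.19, beside 11.2%, 5.97% and 0.32 over all 5' UTR pairs. Of cluster C, 8 of 30 were higher (26.7%, interval 12.3% to 45.9%) and 0 lower (upper limit 11.6%), with a median of 0.43. Of cluster D, 2 of 34 were higher and 2 lower (median 0.21), and of cluster E 2 of 74 were higher and 15 lower (20.3%, interval 11.8% to 31.2%), with a median of -0.26. Without centring the medians were 0.87 in B, 0.11 in C, -0.11 in D and -0.58 in E, so the sign in D alone turned. The higher and lower pairs were then 7 and 0 in B, 7 and 0 in C, 1 and 5 in D and 2 and 24 in E, and on score times length 12 and 0, 16 and 2, 5 and 3 and 5 and 28. On score times length 20.8% of all 5' UTR pairs were higher and 15.0% lower, beside 19.2% and 17.1% of all pairs. All these cluster counts take the printed scores as exact, and the rounding of the scores can carry a pair across 2-fold.

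**Figure D5:**
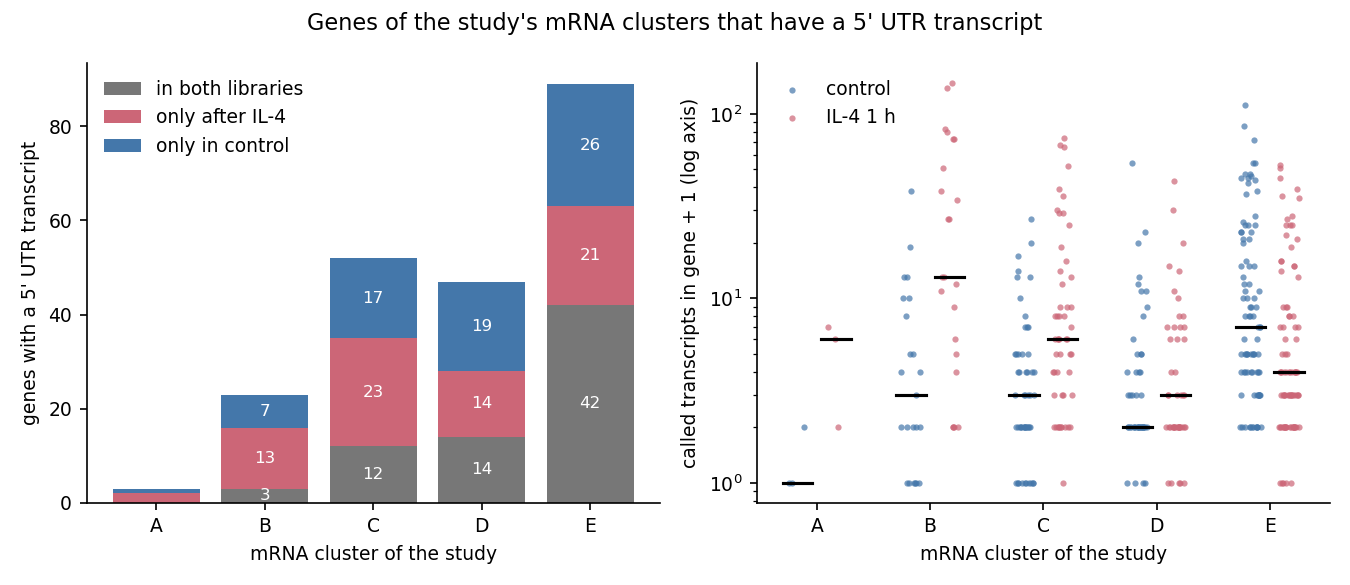
Left, genes of each of the study's mRNA clusters with a 5' UTR transcript in both libraries (grey), only after IL-4 (red) or only in control (blue); right, sense transcripts within each of those genes plus 1, on a log axis, in control (blue points) and after IL-4 (red points), each point 1 gene and black bars the medians. The bars of the IL-4 library lie above those of control in A, B, C and D and below in E.

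The gene bodies followed the same order. The genes of B with a 5' UTR transcript in either library (23 genes) held 125 sense transcripts in control and 829 after IL-4, with 22 genes holding more and 0 fewer. In C (52 genes) there were 196 and 641, with 44 genes holding more and 2 fewer, in D (47 genes) 212 and 225, with 16 more and 16 fewer, and in E (89 genes) 1318 and 702, with 7 more and 63 fewer. All 1543 genes held 9693 and 11162, with 624 more and 509 fewer. Of cluster A, 3 genes of 32 had a 5' UTR transcript, and they held 1 transcript in control and 12 after IL-4. All these totals include the 5' UTR transcripts by which the genes were chosen. In terms of genes with a 5' UTR transcript, B had 10 in control and 16 after IL-4 with 3 in both, C had 29 and 35 with 12 in both, D 33 and 28 with 14, and E 68 and 63 with 42.

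Among the genes of B, Tcf7l2, a Wnt pathway transcription factor, had 0.2 over 170 bp in control (chr19:55741940-55742109) within an exonic transcript of 0.8 after IL-4, and 18 transcripts in the gene against 137. Fmnl2, a formin that builds actin filaments, had 0.2 over 289 bp (chr2:52857840-52858128) and 0.6 over 633 bp (chr2:52857821-52858453), with 4 and 82 transcripts in the gene. Traf5, an adaptor of tumour necrosis factor receptors, had 0.3 and an intronic 0.7. Several B genes had a 5' UTR transcript only after IL-4 and many more transcripts along the gene: Fyn, a Src family kinase, with 0.3 and 1 against 72 transcripts, and Clcn5, an endosomal chloride-proton exchanger, with 0.3 and 9 against 72. Tfec, a macrophage transcription factor of the MiT family, had 0.4 after IL-4 over an intronic transcript of 0.3 in control, with 2 and 26 transcripts. Of the 4 highest-scoring genes of B, St7 had a 5' UTR transcript only after IL-4, as given above, and the others did not reach 2-fold on the score: Fam20c, a kinase of secreted proteins, had 1.4 and an intronic 1.9, Bcar3, an adaptor of integrin signalling, had 0.8 and an intronic 0.9 with 12 and 79 transcripts in the gene, and the chaperone gene Hsph1 had 0.7 and 0.6. On score times length Fam20c (2.69) and Bcar3 (2.20) were past 2-fold higher. Bcl2, the inhibitor of apoptosis, had a transcript of 0.1, at the lowest score, with 0 and 10 transcripts in the gene.

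In A, Snn had 0.2 in control and 0.4 over an intronic transcript after IL-4, and the other genes of A with a 5' UTR transcript, Hbegf and Pdcd1lg2, are described with the polarization genes. In C, Ikzf1, the Ikaros transcription factor, had 0.3 in control and 0.6 over an intronic transcript after IL-4, with 19 and 73 transcripts in the gene. Itsn2, an endocytic scaffold, had 0.2 and 0.5 with 12 and 51, and Nf2, which encodes the tumour suppressor merlin, had 0.3 and 0.5 with 4 and 28. Nabp1, Tob1 and Rel were among the highest-scoring genes of C, and Tob1, an antiproliferative gene, had 1.9 and an intronic 1.4. Osbpl3, an oxysterol-binding protein relative, had a 5' UTR transcript only after IL-4 (0.4, chr6:50455562-50456177), with 1 transcript in the gene in control and 65 after IL-4. TTCNNNNGAA matched a promoter window of 2 of 20 genes of B and 6 of 42 genes of C (14.3%, interval 5.43% to 28.5%), against 5 of 70 of E (7.14%, interval 2.36% to 15.9%), with intervals that overlapped and that for C holding the 8.01% of all genes.

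The highest-scoring genes of D did not reach 2-fold on either scale. Srebf2, the transcription factor of cholesterol synthesis, had 1.2 and 0.8, the glutamine transporter gene Slc1a5 had 1.0 and a promoter transcript of 1.5, the sialyltransferase gene St6galnac4 had 0.9 and 0.4, and Add3, which encodes an adducin of the membrane skeleton, had 0.7 and 0.4.

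In E, the pairs that were lower by 2-fold or more included Pfkfb3 and Apobec1, the RNA-editing cytidine deaminase, whose 5' UTR transcript of 908 bp had 0.8 in control (chr6:122596293-122597200) and an intronic counterpart of 0.2 after IL-4. Alcam, an adhesion molecule, had 0.9 and 0.3 (-0.68 on score times length) with 11 and 5 transcripts in the gene. B4galt6, a lactosylceramide synthase, had 0.4 and 0.1 with 24 and 6, and Slc40a1, the iron exporter ferroportin, had 0.5 and 0.2 with 4 and 2. Cerk, the ceramide kinase, had an intronic transcript of 0.6 in control and a 5' UTR transcript of 0.2 after IL-4, with 46 and 26 in the gene. Over the rounding of the scores, only Pfkfb3 (at most -1.79) and Apobec1 (at most -1.26) of the genes just named stayed 2-fold lower. The centred log2 ratio could be as high as -0.96 at Alcam, -0.90 at B4galt6, -0.53 at Slc40a1 and -0.82 at Cerk. The highest-scoring genes of E were BC005537, Zfp36l2, the receptor gene Notch1 (1.4 and 1.0) and Lyl1, a haematopoietic transcription factor (1.1 and 0.9), and none of these reached 2-fold on the score, although BC005537 (-1.03) and Zfp36l2 (-1.31) did on score times length. Against this direction Pigv, a mannosyltransferase of the GPI anchor pathway, had 0.3 and 0.6. Of the 89 genes of E with a 5' UTR transcript, 14 were lost with no same-strand overlap, Nr1h3 and Thbs1 (thrombospondin 1, 0.3) among them, and 5 were gained with none, beside 130 and 248 of all 1543 genes (8.43% and 16.1%).

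Among 35 genes known for alternative polarization, 0 had a 5' UTR transcript in control and 3 had one after IL-4, none of them with a same-strand overlap in control, beside 530 of all 1543 genes (34.3%) gained and 248 (16.1%) gained with no overlap. They were Hbegf (0.5), Myc, a growth-promoting transcription factor (0.4, 0 transcripts in the gene in control and 4 after IL-4), and Pdcd1lg2, which encodes the inhibitory ligand PD-L2 (0.2, chr19:29410984-29411216, 0 and 6 transcripts). The 3 genes together held 0 sense transcripts in control and 11 after IL-4. That count includes the 5' UTR transcripts by which they were chosen, so its direction was partly fixed by the choice. Of all 35 genes, 14 in control and 27 after IL-4 had a transcript of any class under the gene's name. Over all named genes 11.1% had one only after IL-4 and 8.58% only in control.

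Of 30 genes of the IL-4 receptor and JAK-STAT pathway, 4 had a 5' UTR transcript in control and 5 after IL-4, and of their 6 pairs 3 were at least 2-fold higher (50%, interval 11.8% to 88.2%) and 1 lower (16.7%, interval 0.42% to 64.1%), beside 11.2% and 5.97% of all 5' UTR pairs, which lie just below the first interval and within the second. Jak1, a kinase bound to the IL-4 receptor, had 0.3 over 211 bp and 0.5 over 235 bp with the gene holding 18 and 12 transcripts. Socs3, a feedback inhibitor of cytokine signalling, had 0.3 and 0.5. Stat5b had 0.8 and 0.6 at one start and, at another, 0.5 in control with a promoter transcript of 0.2 after IL-4. Without centring 1 of the 6 pairs was 2-fold higher and 1 lower, and on score times length 2 were higher and 0 lower.

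Of 36 immediate early genes, 3 had a 5' UTR transcript in control and 7 after IL-4, and of their 4 pairs 1 was higher and 0 lower. That pair was Jun, an AP-1 subunit, with 0.3 over 1336 bp and 0.6 over 960 bp, and the ratio was below 2-fold on score times length. On that scale 0 of the 4 pairs were higher and 2 lower, with a median of -0.84, and without centring 1 was higher and 1 lower, so the direction of this list turned with the scaling. Zfp36l2, which destabilises mRNAs, had 2.0 over 317 bp in control (chr17:84187619-84187935) and 0.9 over 303 bp after IL-4. Btg1 had 1.3 in both libraries, but over an exonic transcript of 686 bp in control and a 5' UTR transcript of 224 bp after IL-4 with the 5' end moved by 1 bp, so its gain was one of class. Egr1 (0.1) and the ERK phosphatase gene Dusp6 (0.2) had one only after IL-4 and with no overlap in control.

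Among 34 macrophage lineage factors, 7 genes had a 5' UTR transcript in control and 6 after IL-4, with only 1 in both. Of 9 pairs 0 were 2-fold higher and 0 lower. The exact upper limit of each 0 was 33.6%, which holds the 11.2% higher and 5.97% lower of all 5' UTR pairs. Without centring 0 of the 9 pairs were higher and 3 lower, and on score times length 1 was higher and 2 lower. Creb1, the cyclic AMP response factor, had 1.3 in control and an intronic 0.8 after IL-4, Fli1, an Ets factor, had 0.9 and an intronic 0.4, and Ets2 and Runx1 had 0.4 and 0.4 and 0.3 and 0.4. Tfeb, a lysosomal regulator, had an intronic 0.7 and a 5' UTR transcript of 0.3. Among 40 NF-kB pathway genes, 4 had one in control and 5 after IL-4, with 0 of 4 pairs past 2-fold in either direction (1 lower without centring and 1 lower on score times length); Rel had 0.7 and 1.0, Rela an intronic 0.6 and a 5' UTR 0.3, and Nfkb1 0.2 in both. Nfkbid, a nuclear inhibitor of NF-kB, had 0.2 in control only. For the NF-kB pairs the exact upper limit of 0 of 4 was 60.2% in each direction.

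Lists of genes with general cellular roles were read as well. They are not a neutral comparison, since the ubiquitin list holds Rnf150 and Trim45 of cluster E and Trim36 of cluster D. Of 53 translation initiation genes 4 had a 5' UTR transcript in control and 5 after IL-4, and 3 of 7 pairs were higher and 0 lower, among them Pabpc1, the poly(A) binding protein (exonic 0.4 and 5' UTR 0.7), and Eif6 (0.3 and exonic 0.5). Eif4g3 (intronic 0.7 and 5' UTR 0.7), Eif5b (intronic 0.8 and 5' UTR 0.6) and Eif4e2 (0.4 and 0.3) did not reach 2-fold. Of 75 ribosomal protein genes 3 had one in control and 1 after IL-4, with 1 of 3 pairs higher, that of Rpl10a (0.3 and intronic 0.5), beside Rps12 (0.6 in both) and Rps19 (0.4 and intronic 0.3). Of 68 genes listed as splicing factors and RNA helicases there were 6 and 5, with 3 of 9 pairs higher and 0 lower. Srsf6 had an exonic 0.4 and a 5' UTR 0.7, and Hnrnpd 0.6 and an exonic 0.4. Ddx17 reached 0.9 in control and 0.6 after IL-4. Ddx26b (Ints6l), in this list through its older symbol, had 1.0 and 0.5. Of 77 chromatin enzymes there were 13 and 12, with 0 of 14 higher and 1 lower, the remodeller Chd1 (1.0 over 134 bp and 0.3 over 283 bp), while Kdm5c (0.6 and 0.5), Setd1b (0.3 and 0.4) and Smarcb1 (0.4 and 0.2) did not reach 2-fold. Without centring 0 chromatin pairs were higher and 5 lower, and on score times length 3 were higher and 1 lower. The exact upper limit for 0 of 14 was 23.2%, which holds the 11.2% of all 5' UTR pairs that were higher. Of 183 ubiquitin ligases and conjugases there were 26 and 33, with 4 of 33 pairs higher and 2 lower; Ube2h was lower on the score (0.8 over 49 bp and 0.2 over 404 bp) but had a ratio of 0.96 on score times length, and Fbxw4 (promoter 2.0 and 5' UTR 0.9) and Rnf10 (0.9 in both) did not reach 2-fold. Without centring 2 of these pairs were higher and 5 lower, and on score times length 7 and 4. For translation initiation the same counts were 1 and 0 without centring and 1 and 2 on score times length, and for splicing factors 2 and 1 and 3 and 0. With 3 to 33 pairs in a list the intervals were wide, from 7.49% to 70.1% for the higher splicing factor pairs and from 9.90% to 81.6% for those of translation initiation, and both hold the background of 10.3%.

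Of the 13 genes that the study singles out in its text, Abca1 and Hbegf had a 5' UTR transcript. Abca1, the cholesterol exporter, had 0.4 over 491 bp in control (chr4:53159444-53159934) and 0.2 over 290 bp after IL-4 (chr4:53159606-53159895), a centred log2 ratio of -0.68 (-1.26 to -0.16 over the rounding), which did not reach 2-fold. Without centring it was just 2-fold lower, and on score times length the ratio was -1.85. The Abca1 gene held 45 sense transcripts with a highest score of 3.7 in control and 7 with a highest of 0.7 after IL-4.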

How the data were processed

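GRO-seq transcripts of 1 control and 1 IL-4 library were analysed. Per the submitters' processing notes, BWA 0.7.10, SAMtools 0.1.19 and HOMER 4.2 were used on mm10, and the methods name HOMER's GRO-seq mode. The authors deposited, for each library, transcripts with position, strand, annotation and a score rounded to 1 decimal, whose scaling is not given in the sources used here; read depth is unknown. The file's gene name is that of the nearest promoter and can be an older symbol.

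Gene and exon positions came from GENCODE M21 and promoter windows from RefSeq (GRCm38.p6). Sense transcripts were counted within whole genes. A pair was 2 same-strand transcripts that were each other's largest overlap (at least 1 bp); a pair was called at a centred 2-fold, and a rounding range let each score vary by 0.05. Named were the 6 largest changes each way with a score of at least 0.5, the 6 highest gained and lost without overlap, the 5 highest and 3 longest per library, the 4 highest-scoring genes of each list and the study's 13 genes; further genes of the lists were named after their values were seen, and some genes that the rule takes are not reported here. The members and lists were chosen with earlier results of these data known. Exact (Clopper-Pearson) 95% intervals were computed. Alternatives varied the score minimum, class, overlap, centring, rounding and gene matching. Code was tested on simulated data. Python 3.11.15, pandas 2.3.3, NumPy 2.4.6, SciPy 1.17.1 and matplotlib 3.10.9 were used.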

Additional observations from a re-analysis of the deposited data

How the results depend on the processing

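With a score of at least 0.3 the ratio of 5' UTR transcripts (IL-4 over control) turned from 1.06 to 0.848, the median centred log2 ratio was 0.10, and genes only in control (29.5%) outnumbered those only after IL-4 (23.5%). When the 21561 highest-scoring transcripts of each library were kept, that median was 0.14, with 6.29% of pairs 2-fold higher and 2.15% lower. Of all pairs kept in this way, 6.70% were higher and 6.11% lower. Taking any transcript that overlaps a 5' UTR exon gave 6138 and 7544, a ratio of 1.23 that exceeded the 1.19 of all transcripts. The median length difference was then 72.5 bp, and 8.96% of genes were only in control. Score times length gave a median of 0.074, with 20.8% higher and 15.0% lower, against 19.2% and 17.1% of all pairs. No centring gave a median of 0 and 17.1% lower. Over the whole rounding range 2.69% were higher and 1.18% lower. Genes without a same-strand transcript in the other library were 16.1% only after IL-4 and 8.43% only in control, and those without any transcript under the name 5.44% and 3.43%. The cause of these differences was not tested. The other 44 of 62 values stayed within the limits set for a change, among them those for the gene of the annotated transcript (34.4% and 30.3%), an alternative chosen after seeing the data. No paired analysis was possible because no value comes from a test and each condition has 1 library, so no replicate could be left out either. Read depth is unknown, and scores are given to 1 decimal, so low scores limit every ratio and every gene called gained or lost.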
